A study of Mus musculus with 9 samples.

Results

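Lysozyme-expressing dendritic cells that carry C5aR (C5aR+ LysoDC), the receptor for the complement fragment C5a, were compared with lysozyme-expressing macrophages (LysoMac) from the same tissue, the Peyer's patch of the mouse. The comparison uses 6 of the 9 arrays of the series, namely all 3 arrays titled as C5aR+ LysoDC and all 3 titled as LysoMac. The other 3 arrays, of LysoDC without C5aR (C5aR- LysoDC), share in the estimate of the spread and are cited where a gene set the LysoDC populations apart. The cells of all populations were sorted by flow cytometry, after enrichment on CD11c beads, with antibodies to MHC class II, CD4, C5aR, BST2, SIRP and CD11c, and their total RNA was amplified and hybridised to whole-transcript arrays. No genotype, treatment or time point is attached to the groups, and the sources used here do not give the sorting gates or the strain, age and sex of the mice. Whether the 3 arrays of 1 population came from separate animals is not stated, so a p-value here measures only the spread between arrays, which could be technical.

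Peyer's patches are lymphoid follicles of the small intestine, where specialised epithelial cells pass material from the gut lumen to phagocytes beneath them. Macrophages mainly take up and degrade such material, whereas dendritic cells cut it into peptides, load these on MHC class II molecules and present them to CD4 T cells. Class II molecules are αβ pairs whose loading needs lysosomal proteases and the exchange factor H2-M, and their genes share promoter elements bound by RFX and NF-Y with the co-activator CIITA.

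Values are log2 expression values for each transcript cluster (the set of probes that represents 1 gene), so a difference of 1 is a doubling of signal. The median of an array lay between 3.39 and 3.65, and a population mean below 3.39 is called dim here. A difference from a dim mean is only a lower bound and is given without a fold. Differences are C5aR+ LysoDC minus LysoMac with their SE from limma, 3 arrays per population, and a gene is called when its Benjamini-Hochberg adjusted p over all 33793 clusters is under 0.05. Values with the array number as a block in the fit stand beside results whose call the block changed.

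Of 33793 clusters, 17 were higher in C5aR+ LysoDC than in LysoMac (0.0503% of those tested) and 0 were lower (0%). At an unadjusted p under 0.05 limma gave 1195 higher and 897 lower clusters. Of 22180 genes, each represented by 1 cluster, 880 were higher and 559 lower at that p. Counts at that p in the gene lists below are to be read against this background. Exactly 1 gene symbol was attached to 12 of the 17. These were the class II genes H2-Aa, H2-Ab1, H2-Eb1, H2-Ea and H2-DMb1, the lysosomal enzyme genes Lgmn, Plbd1 and Pld4, the lectin gene Mgl2, the chemokine gene Ccl8, and Lsp1 and Nav1, which encode cytoskeleton-binding proteins. Several symbols were attached to 1 cluster, which had the smallest p of the 17. It read 9.83, 9.98 and 10.09 in LysoMac and 12.28, 12.46 and 12.34 in C5aR+ LysoDC (2.39 ± 0.13, limma, adjusted p = 0.000191). Another 4 clusters have no symbol, of which 1 showed the largest called difference, 5.85 ± 0.60 as a lower bound. That cluster was dim in LysoMac, at 2.33, 1.82 and 3.95, and read 9.07, 8.29 and 8.27 in C5aR+ LysoDC. With the block there were 20 higher clusters (0.0592%) and 0 lower ones, and 15 of the 17 were among the 20. Without all 3 arrays numbered 3, an alternative chosen after the data were seen, 8 clusters were higher, of which 5 were among the 17. The fit of the 6 arrays alone called 4, without LysoMac array 1, LysoMac array 2, C5aR+ array 2, C5aR+ array 3 and C5aR- array 2 the count was 4, 11, 4, 9 and 11, and clusters called lower appeared without LysoMac array 2 (4), LysoMac array 3 (3) and C5aR- array 2 (1).

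**Figure D1:**
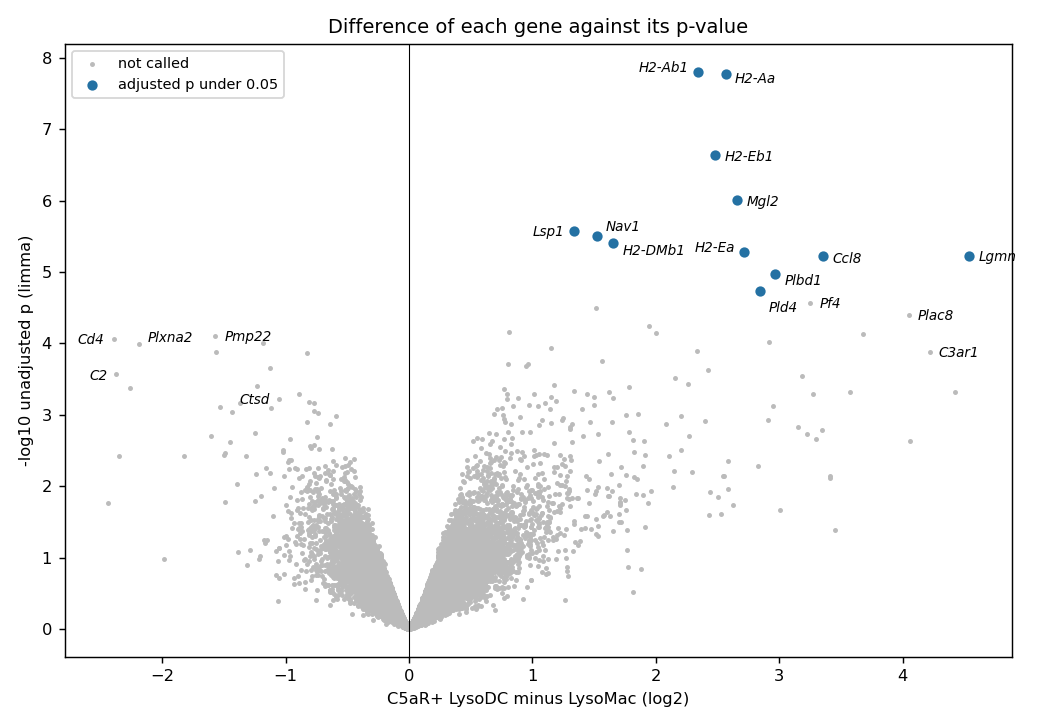
Each point is 1 of 22180 genes, with its difference, C5aR+ LysoDC minus LysoMac on the log2 scale, against the -log10 of its unadjusted limma p. The 12 called genes (blue) all lie to the right of 0, with the class II genes H2-Ab1 and H2-Aa at the top and Lgmn farthest right at 4.54.

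Arrays of C5aR+ LysoDC and LysoMac carrying the same number deviated together. Over all clusters, the deviations of C5aR+ LysoDC and LysoMac arrays from their population means correlated at r = 0.16 for both arrays 1, 0.26 for both arrays 2 and 0.41 for both arrays 3. For arrays of different numbers r lay between -0.31 and 0.07. C5aR- LysoDC, whose arrays enter the block by number too, did not show this pattern against LysoMac, with r of 0.17, -0.11 and 0.13 for arrays 1, 2 and 3 and up to 0.23 for different numbers. These are descriptions over clusters, and deviations within a population sum to 0, so not all 9 values can be above 0. The interquartile range was narrowest on LysoMac array 2, at 2.16, and the variance of a cluster averaged 0.179 within LysoMac against 0.0958 within C5aR+ LysoDC. Among the 983 genes whose C5aR+ arrays all lay above the LysoMac arrays, C5aR+ array 3 was the highest of its population for 487 (49.5%), against 28.7% of all genes.

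**Figure D2:**
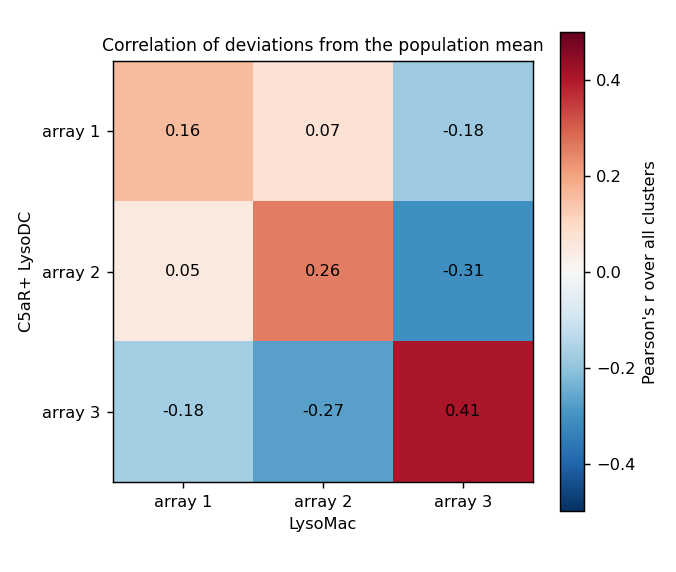
Pearson's r, over all 33793 clusters, between the deviations of each C5aR+ LysoDC array (rows) and each LysoMac array (columns) from the mean of its own population. The diagonal, which holds arrays of the same number, runs from 0.16 to 0.41, and the other 6 cells from -0.31 to 0.07.

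Genes of the MHC class II pathway formed the largest group among the calls. Of 13 measured members of the list, 5 rose in C5aR+ LysoDC and 0 fell, 11 differences were above 0, and the median difference was 1.52, against -0.02 over all 22180 genes, of which 10412 were above 0. With the block 6 members rose, and without all arrays numbered 3 the count was 2. The mean level of the list ran from 6.70 to 6.97 on the LysoMac arrays and was 8.07 on each C5aR+ array. MHC class II was itself a target of the sort antibodies, so a higher level of these genes may be part of how the cells were chosen, and no independent evidence of a difference between the cells rests on it.

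The chain genes of the classical class II molecules led the group. H2-Aa, the α chain of I-A, read 5.06, 5.13 and 4.84 on the LysoMac arrays and 7.44, 7.59 and 7.70 on the C5aR+ LysoDC arrays. Every C5aR+ array lay more than 2 above every LysoMac array, and the difference was 2.57 ± 0.14, or 5.92-fold (limma, adjusted p = 0.000191). H2-Ab1, the β chain of the same molecule, read 9.71, 9.59 and 9.65 in LysoMac and 11.99, 12.06 and 11.93 in C5aR+ LysoDC. Its arrays were the tightest of the group, and the difference was 2.34 ± 0.13, or 5.07-fold (limma, adjusted p = 0.000191). H2-Eb1, the β chain of I-E, read 9.02, 8.31 and 8.87 in LysoMac against 11.18, 11.20 and 11.27. The LysoMac arrays were more spread than the C5aR+ arrays, with array 2 lowest, and the difference was 2.48 ± 0.18 (limma, adjusted p = 0.00196). H2-Ea, the α chain of I-E, read 10.31, 9.16 and 10.32 against 12.56, 12.76 and 12.61. LysoMac array 2 again lay below the other LysoMac arrays, no arrays overlapped, and the difference was 2.72 ± 0.29, or 6.57-fold (limma, adjusted p = 0.0150). H2-Ea is known to carry a promoter deletion in some inbred strains, and here its signal was high in all populations.

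The genes of H2-M, the factor that swaps the invariant chain remnant for antigen peptide, came next. H2-DMb1 was dim in LysoMac, at 2.68, 2.54 and 2.29, and read 4.09, 4.30 and 4.08 in C5aR+ LysoDC. All C5aR+ arrays were higher, by 1.66 ± 0.17 as a lower bound (limma, adjusted p = 0.0132). H2-DMb2 lay far higher on the array's scale, with 9.34, 9.19 and 8.65 against 10.61, 10.60 and 10.53, a difference of 1.52 ± 0.20 that was not called (limma, adjusted p = 0.0559) but was with the block (0.0341). It was also called with median centring (0.0185), without dim clusters (0.0373) and over the mean of a gene's clusters (0.0460), and not with the block on the 6 arrays alone (0.272). Both genes encode near-identical β chains, so their probes may share signal and the split between them is uncertain. H2-DMa, the α chain, differed by 1.01 ± 0.26 with no overlap, from 9.71, 8.99 and 9.92 to 10.54, 10.30 and 10.82, and was not called (limma, adjusted p = 0.556).

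Among the remaining members, Ciita differed most between the populations. Ciita, the co-activator on which class II transcription depends, read 4.97, 4.60 and 4.35 in LysoMac and 5.89, 6.36 and 6.95 in C5aR+ LysoDC. Its arrays did not overlap, but the C5aR+ arrays were spread and the difference of 1.76 ± 0.37 was not called (limma, adjusted p = 0.312). H2-Oa and H2-Ob, the chains of H2-O, which restrains H2-M, differed by -0.06 ± 0.30 and 0.27 ± 0.27. H2-Eb2, a relative of H2-Eb1, differed by 0.38 ± 0.23, Ifi30, the thiol reductase that opens disulfide bonds of antigen, by 0.18 ± 0.19, and Marchf1, the ubiquitin ligase that sends class II molecules to degradation, by -0.32 ± 0.18. None of these 5 was called. Among the calls, H2-Ea did not pass without C5aR+ arrays 1, 2 or 3 (limma, adjusted p = 0.0688, 0.118 and 0.0732), LysoMac array 1 (0.0780) or C5aR- array 2 (0.0575), nor H2-DMb1 without any of C5aR+ arrays 1, 2 and 3 (0.0570, 0.107 and 0.0654) or without LysoMac array 1 (0.0780). H2-Eb1, H2-Ab1 and H2-Aa passed whichever single array was left out. H2-Eb1 did not pass on the 6 arrays alone (limma, adjusted p = 0.0691) or without all arrays numbered 3 (0.104). With the block on the 6 arrays alone, H2-Eb1, H2-Ab1 and H2-Aa all fell short (limma, adjusted p = 0.148, 0.0929 and 0.0929).

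**Figure D3:**
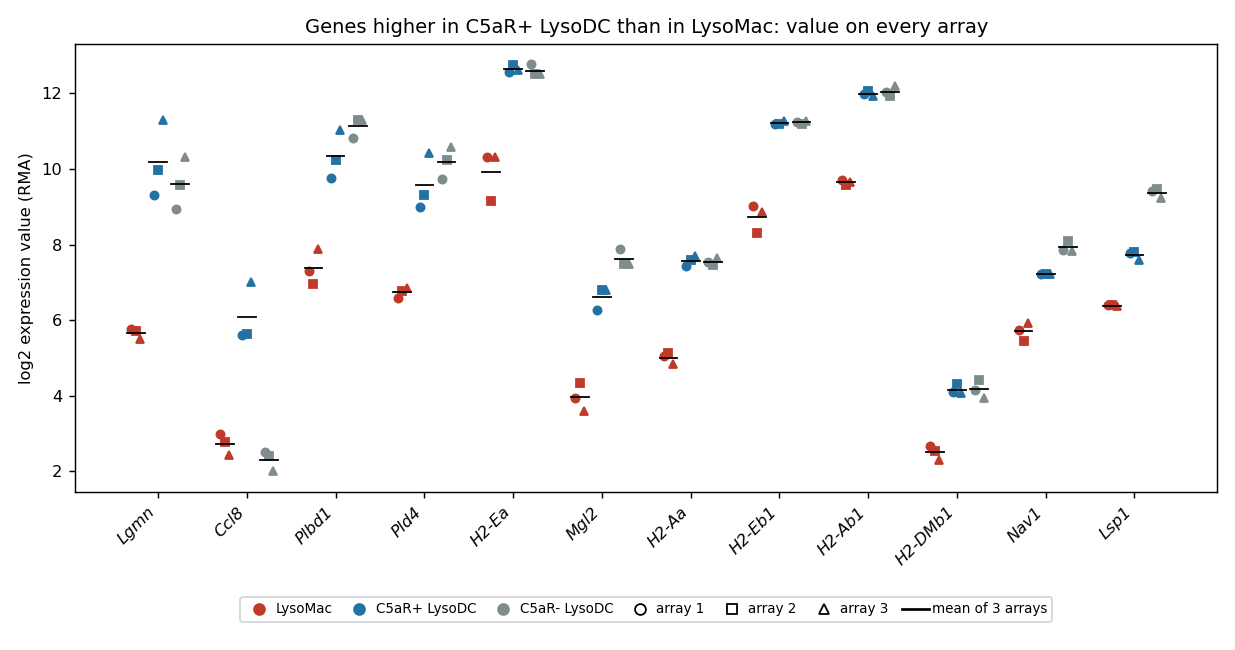
Value on every array (log2, RMA) of the 12 called genes in LysoMac (red), C5aR+ LysoDC (blue) and C5aR- LysoDC (grey), with symbols for the array number and black bars for the mean of 3 arrays. No C5aR+ array overlaps a LysoMac array, the C5aR+ arrays of H2-Ab1 lie within 11.93 to 12.06, and those of Lgmn run from 9.30 to 11.31.

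Since these genes moved together and share a known promoter layout, their promoters were read from RefSeq (build GRCm38.p6, 250 bases before to 50 after the annotated start). The motif searched was GNAAC, the core of the X box bound by RFX, followed 10 to 30 bases later on the same strand by GATTGG, the Y box core bound by NF-Y, in both orientations. The pair was found in the promoters of 6 of the 10 class II list genes in the table, and in 1.20% of all 32851 promoters there, while GATTGG alone was in 16.1%. Of the 9 called genes in the table it was in H2-Aa, H2-Eb1 and H2-DMb1, and in none of the 6 called genes outside the list. Windows around the pair are shown for these 3 genes and, as members that were not called although they hold the pair, for H2-Oa and H2-Ob, 5′ to 3′ on the strand of the gene with both cores in capitals.
H2-Aa, chr17:34287855-34287916, minus strand: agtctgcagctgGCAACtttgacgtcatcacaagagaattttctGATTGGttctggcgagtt
H2-Eb1, chr17:34305764-34305824, plus strand: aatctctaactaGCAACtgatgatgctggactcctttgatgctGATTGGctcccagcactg
H2-DMb1, chr17:34153085-34153146, plus strand: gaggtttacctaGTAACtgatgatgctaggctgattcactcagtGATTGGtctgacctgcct
H2-Oa, chr17:34092291-34092352, plus strand: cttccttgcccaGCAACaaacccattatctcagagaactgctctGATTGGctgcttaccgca
H2-Ob, chr17:34238806-34238864, plus strand: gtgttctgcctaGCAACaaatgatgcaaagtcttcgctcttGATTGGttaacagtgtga
Between the cores lie 27 bases in H2-Aa, H2-DMb1 and H2-Oa, 26 in H2-Eb1 and 24 in H2-Ob. The X box core began 81, 91 and 94 bases before the annotated start in H2-Aa, H2-Eb1 and H2-DMb1. H2-Eb2 held the pair as well, 132 bases before its start, and H2-DMb2 held GATTGG without the pair. H2-DMa, Ifi30 and Marchf1, none of them called, did not hold the pair either. A match describes these letters only.

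Antigen presentation outside class II showed 0 calls. Of 12 measured genes of MHC class I loading none was called in limma, with 0 higher and 1 lower at an unadjusted p under 0.05, and the median was -0.10. B2m, the light chain of class I, read 12.69, 12.68 and 12.56 in LysoMac and 12.59, 12.68 and 12.40 in C5aR+ LysoDC, which overlap. Of 13 co-stimulatory genes 0 were called in limma and 4 were higher and 0 lower at an unadjusted p under 0.05, with a median of 0.46, which was 0.28 without LysoMac array 2 and 0.70 without C5aR+ array 1. Cd83, which marks mature dendritic cells and stabilises class II and CD86, read 5.11, 3.99 and 4.68 against 5.65, 5.87 and 6.22, without overlap (difference 1.32 ± 0.29, limma, adjusted p = 0.357). Pdcd1lg2, the PD-1 ligand PD-L2, differed by 1.71 ± 0.59, Tnfsf9, the ligand of 4-1BB, by 1.28 ± 0.41 and Cd86 by 0.78 ± 0.27, none of them called.

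Lysosomal enzymes contributed the largest named difference. Lgmn encodes legumain, an asparaginyl endopeptidase of endosomes and lysosomes that cleaves antigen and activates cathepsins. It read 5.76, 5.71 and 5.50 in LysoMac and 9.30, 9.98 and 11.31 in C5aR+ LysoDC. The LysoMac arrays were tight and the C5aR+ arrays were spread over 2 log2 units with array 3 highest. The lowest C5aR+ array still stood 3.54 above the highest LysoMac array. The difference was 4.54 ± 0.49, or 23.2-fold (limma, adjusted p = 0.0150), and 3.91 without all arrays numbered 3 (adjusted p = 0.0563). No other of the 17 measured endolysosomal proteases and inhibitors was called, and the list's median was 0.09. Ctsd, the aspartic protease cathepsin D, pointed the other way, with 9.31, 8.96 and 9.67 in LysoMac and 8.52, 8.18 and 8.07 in C5aR+ LysoDC. Its arrays did not overlap and the difference was -1.05 ± 0.21, which was not called (limma, adjusted p = 0.252) except under cyclic loess (0.0480). Cst3, the secreted cathepsin inhibitor cystatin C, differed by 0.52 ± 0.19 (limma, adjusted p = 0.793).

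Among 14 measured lysosomal lipases, nucleases and glycosidases 2 rose, 0 fell, and the median was 0.11. Plbd1, a phospholipase B-like lysosomal enzyme, read 7.31, 6.95 and 7.89 in LysoMac and 9.77, 10.23 and 11.04 in C5aR+ LysoDC. Array 3 was the highest of either population, and the difference was 2.97 ± 0.34, or 7.82-fold (limma, adjusted p = 0.0228). Pld4, an endolysosomal exonuclease that trims single-stranded nucleic acids, read 6.58, 6.78 and 6.85 against 9.0, 9.32 and 10.42. Here too array 3 was the highest of the C5aR+ arrays, and the difference was 2.84 ± 0.35, or 7.17-fold (limma, adjusted p = 0.0362). Its relative Pld3 differed by -0.35 and was not called. Calls of this family were lost under several alternatives. With 1 weight per population Lgmn, Plbd1 and Pld4 did not pass (limma, adjusted p = 0.0792, 0.0792 and 0.158). Nor did they on the 6 arrays alone (limma, adjusted p = 0.132, 0.218 and 0.218). Lgmn did not pass without LysoMac arrays 1, 2 or 3 (limma, adjusted p = 0.0984, 0.0802 and 0.0640), C5aR+ array 2 (0.109) or C5aR- array 2 (0.0595). Plbd1 did not pass without LysoMac arrays 1 or 2 (limma, adjusted p = 0.148 and 0.106), C5aR+ arrays 2 or 3 (0.142 and 0.0654) or any C5aR- array (0.0567 to 0.0796), nor Pld4 without any LysoMac array (0.215, 0.146 and 0.0728), C5aR+ array 2 (0.144) or any C5aR- array (0.0593 to 0.110).

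C-type lectin receptors, which bind glycans on microbes and cell debris, had a median of 1.10 over 18 measured genes, of which 1 rose and 0 fell, while 10 were higher and 1 lower at an unadjusted p under 0.05. The median was 0.62 without C5aR+ array 3. Mgl2, a galactose-type lectin known from a subset of dendritic cells, read 3.95, 4.34 and 3.60 in LysoMac and 6.27, 6.80 and 6.80 in C5aR+ LysoDC. The lowest C5aR+ array stood clear of the highest LysoMac array, and the difference was 2.66 ± 0.23, or 6.32-fold (limma, adjusted p = 0.00672). It was not called without LysoMac array 1 (limma, adjusted p = 0.0780), C5aR+ array 2 (0.0784) or all arrays numbered 3 (0.144). Clec10a, its close paralog, was dim in LysoMac (2.90, 3.79 and 3.14) and read 3.87, 4.75 and 5.51 in C5aR+ LysoDC, which was not called (1.43 ± 0.42, limma, adjusted p = 0.640). The probes of such close relatives may share signal.

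Mrc1, the mannose receptor of tissue macrophages and some dendritic cells, was dim in LysoMac at 3.41, 3.41 and 3.15 and read 5.04, 6.34 and 7.43 in C5aR+ LysoDC. The C5aR+ arrays differed more among themselves than for Mgl2, and the difference of 2.95 ± 0.59 was not called (limma, adjusted p = 0.277). Clec4b1, a receptor of the Dectin-2 cluster, differed by 2.08 ± 0.46 (limma, adjusted p = 0.357). C5aR+ array 3 was the highest C5aR+ array for 13 of the 18 lectin genes. The mean level of the list was 5.19 to 5.69 in LysoMac and 5.78, 6.22 and 7.11 in C5aR+ LysoDC.

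Of 26 measured chemokine genes 1 rose, 0 fell, 10 were higher and 0 lower at an unadjusted p under 0.05 and the median was 0.44, or 0.26 without all arrays numbered 3. Ccl8 encodes a chemoattractant of monocytes and lymphocytes. It was dim in LysoMac at 3.00, 2.78 and 2.43 and read 5.62, 5.64 and 7.02 in C5aR+ LysoDC. All C5aR+ arrays were higher, with array 3 highest, and the difference was 3.35 ± 0.36 as a lower bound (limma, adjusted p = 0.0150), a call the block ended (adjusted p = 0.0507). It was not called without any single LysoMac array (limma, adjusted p = 0.0984, 0.0793 and 0.0640), C5aR+ array 2 (0.0809), C5aR- array 1 (0.0524) or C5aR- array 2 (0.0595).

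Pf4, the platelet factor CXCL4 that macrophages also express, read 4.31, 4.13 and 3.06 in LysoMac and 6.66, 6.78 and 7.81 in C5aR+ LysoDC. No arrays overlapped, and the difference of 3.25 ± 0.42 missed the threshold (limma, adjusted p = 0.0502), which it passed under 5 of 20 alternatives (adjusted p from 0.0169 to 0.0421). Ccl24, an attractant of eosinophils, read 5.04, 5.21 and 4.93 against 7.88, 8.03 and 10.00, a difference of 3.58 ± 0.68 (limma, adjusted p = 0.240). Its LysoMac arrays were tight, while C5aR+ array 3 stood well above the other C5aR+ arrays. Ccl5, an attractant of T cells, differed by 2.26 ± 0.41 (limma, adjusted p = 0.228), and was called without C5aR+ array 1 (0.0126). Ccl6, a monocyte attractant, was dim in LysoMac and differed by 3.34 ± 0.76 (limma, adjusted p = 0.403).

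Of 17 chemoattractant receptor genes 0 were called in limma, 6 were higher and 0 lower at an unadjusted p under 0.05, and the median was 0.29, or 0.44 without LysoMac array 1. C5ar1, whose protein defined the sort, read 4.62, 4.19 and 4.99 in LysoMac and 4.92, 4.09 and 5.04 in C5aR+ LysoDC. Its arrays overlapped, with a difference of 0.08 ± 0.29. C3ar1, the receptor for the sister fragment C3a, read 2.71, 4.41 and 3.35 against 6.88, 7.25 and 9.0. The populations were far apart, but both were spread and the difference of 4.22 ± 0.67 was not called (limma, adjusted p = 0.122). Ccr7, which guides dendritic cells to lymphoid tissue, read 4.29, 5.07 and 4.34 against 6.17, 6.77 and 6.77, without overlap (2.00 ± 0.29, limma, adjusted p = 0.0972). Ccr2, the receptor that brings monocytes out of the marrow, differed by 1.24 ± 0.33, and Gpr183, the oxysterol receptor that positions cells in follicles, by 1.03 ± 0.27, both uncalled.

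Besides H2-DMb2 and a cluster with several symbols, the block added calls of Plxdc2, Mmp12 and Fcgrt. Plxdc2, a plexin-domain membrane protein, read 4.69, 4.04 and 5.10 in LysoMac and 7.79, 7.70 and 9.38 in C5aR+ LysoDC. The difference between arrays of the same number was 3.10, 3.66 and 4.28, and its mean of 3.68 ± 0.54 was called with the block (limma, adjusted p = 0.0972, and 0.00378 with the block), as it was without all arrays numbered 3 (0.0360). Mmp12, the macrophage metalloelastase, read 3.66, 4.13 and 5.38 against 6.58, 7.65 and 8.49. Both populations were lowest on array 1 and highest on array 3, with same-number differences of 2.92, 3.52 and 3.11 (3.18 ± 0.56, limma, adjusted p = 0.193, and 0.0121 with the block). Fcgrt, the neonatal Fc receptor that recycles IgG, read 4.53, 4.09 and 4.57 against 6.74, 6.79 and 8.40 (2.92 ± 0.44, limma, adjusted p = 0.110, and 0.0235 with the block). C5aR+ array 3 stood apart from the other C5aR+ arrays, so its same-number differences of 2.21, 2.70 and 3.83 were less even. With the block on the 6 arrays alone, where 1 cluster was higher, Plxdc2, Fcgrt and Mmp12 were not called (limma, adjusted p = 0.0959, 0.247 and 0.0929).

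**Figure D4:**
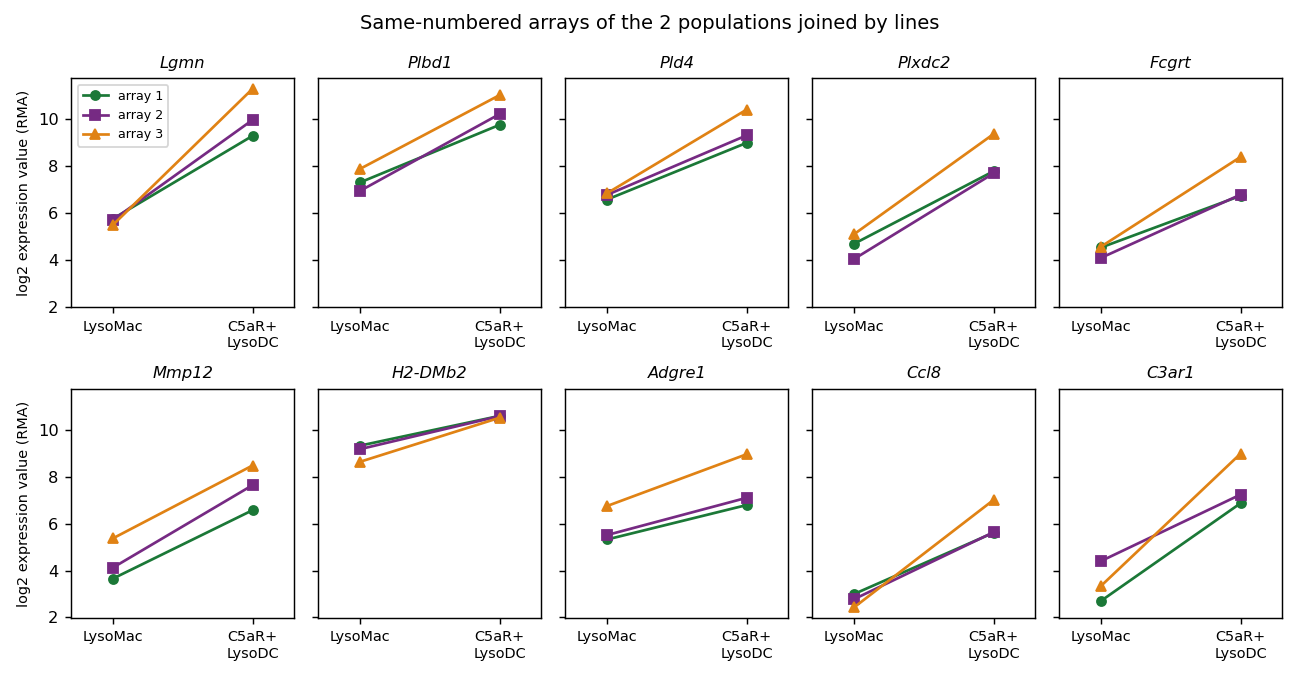
Values (log2, RMA) of 10 genes in LysoMac (left) and C5aR+ LysoDC (right), with arrays of the same number joined by a line. The lines of Mmp12 and Adgre1 run nearly parallel, with array 3 (orange) on top at both ends. Array 3 is on top at both ends for Plxdc2 too, with same-number differences of 3.10, 3.66 and 4.28. Lines of Lgmn and Ccl8 fan out towards array 3 of C5aR+ LysoDC, and for C3ar1 the lines of arrays 2 and 3 cross.

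Fc receptors and matrix enzymes showed 0 calls without the block. Of 10 measured Fc receptor genes all 10 differences were above 0, 0 were called in limma, 4 were higher and 0 lower at an unadjusted p under 0.05, 1 was called with the block and the median was 0.44, or 1.60 when dim clusters were left out. Fcgr1, the high-affinity IgG receptor, read 4.62, 4.75 and 4.55 in LysoMac and 6.79, 7.25 and 9.78 in C5aR+ LysoDC. LysoMac arrays were tight, and C5aR+ array 3 stood far above the others (3.30 ± 0.78, limma, adjusted p = 0.456). Fcgr4, a receptor for IgG complexes, differed by 2.91 ± 0.63 and Fcgr2b, the inhibitory receptor, by 2.58 ± 0.69, both with the same high array 3 and neither called. Of 12 matrix proteases and inhibitors 0 were called in limma, 4 were higher and 2 lower at an unadjusted p under 0.05. Mmp13, a collagenase, was dim in LysoMac at 2.13, 2.82 and 1.93 and read 4.22, 5.47 and 6.99 in C5aR+ LysoDC (3.27 ± 0.62, limma, adjusted p = 0.240). Mmp2, a gelatinase, and Timp2, an inhibitor of it, lay lower in C5aR+ LysoDC by -1.83 ± 0.47 and -1.16 ± 0.32, again uncalled.

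Defining genes of macrophages and dendritic cells were checked against the labels. The complement genes C1qa, C1qb and C1qc, which mark tissue macrophages, were high in both populations. C1qa read 11.46, 10.92 and 12.20 in LysoMac and 11.61, 11.23 and 11.78 in C5aR+ LysoDC, a difference of 0.01 ± 0.31 with full overlap, and C1qb and C1qc differed by -0.29 ± 0.18 and -0.15 ± 0.17. Csf1r, the growth factor receptor on which macrophages depend, read 10.84, 10.41 and 11.46 against 11.07, 10.49 and 11.05, and Cd68, a lysosomal glycoprotein of macrophages, differed by 0.28 ± 0.34. Mertk, a receptor for dying cells, was lower in C5aR+ LysoDC without overlap (7.84, 7.89 and 8.12 against 7.69, 7.28 and 6.54), by -0.78 ± 0.26, and was not called (limma, adjusted p = 0.749). Adgre1, an adhesion receptor long used as a macrophage marker, read 5.33, 5.52 and 6.76 in LysoMac and 6.80, 7.11 and 8.97 in C5aR+ LysoDC. Array 3 was the highest of both, and the difference of 1.75 ± 0.63 was not called (limma, adjusted p = 0.782, and 0.0600 with the block). Over the 29 measured genes of the macrophage list 0 were called in limma, 7 were higher and 4 lower at an unadjusted p under 0.05, and the median was 0.06. Differences in the list ran from -1.49 to 3.30. Its 4 members of smallest p were all higher in C5aR+ LysoDC, the cells labelled dendritic. They were Fcgr1 (3.30 ± 0.78), Mrc1 (2.95 ± 0.59), Siglec1 (2.14 ± 0.66) and Dab2 (1.70 ± 0.52). Mrc1 and Siglec1 were dim in LysoMac.

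Dendritic cell genes were split between some at similar levels in both populations and others that were higher in C5aR+ LysoDC without being called. Flt3, a cytokine receptor needed for dendritic cell development, read 3.85, 3.52 and 3.49 in LysoMac and 4.23, 4.47 and 4.47 in C5aR+ LysoDC, close to the array medians in both (0.77 ± 0.34, limma, adjusted p = 0.801). Zbtb46, the transcription factor of conventional dendritic cells, read 4.05, 3.87 and 4.41 against 4.01, 3.77 and 4.26, with overlap. Itgax, the gene of CD11c, was high in both, at 9.97 to 11.33 and 10.63 to 11.08, and Irf8, a factor of type 1 dendritic cells, differed by 0.11 ± 0.13. Irf4, a factor of type 2 dendritic cells, read 5.96, 4.70 and 6.10 against 6.56, 6.75 and 6.82, without overlap and uncalled (1.13 ± 0.35, limma, adjusted p = 0.714). Cadm1, an adhesion molecule of type 1 dendritic cells, differed by 1.56 ± 0.26 (limma, adjusted p = 0.148), and was called without C5aR- array 3 (0.0487). P2ry10, a lysophospholipid receptor, differed by 1.40 ± 0.29, and Itgae, the integrin chain CD103, by 1.15 ± 0.18 (limma, adjusted p = 0.282 and 0.119). Of 26 measured genes of the list 0 were called in limma, 11 were higher and 0 lower at an unadjusted p under 0.05, and the median was 0.30, or 0.65 without LysoMac array 3.

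Genes known from monocytes and from uptake of dying cells were mostly higher without being called. Of 15 measured monocyte genes 13 were above 0, 0 were called in limma, 5 were higher and 0 lower at an unadjusted p under 0.05 and the median was 0.59, or 1.24 when dim clusters were left out. Plac8, a small protein of monocytes and other leukocytes, read 4.99, 5.81 and 4.03 in LysoMac and 8.47, 8.32 and 10.18 in C5aR+ LysoDC. No arrays overlapped, and the difference of 4.05 ± 0.55 was not called (limma, adjusted p = 0.0634) except with median centring (0.0498) or without dim clusters (0.0348). Fn1, the gene of fibronectin, and Ms4a4c, a membrane protein of monocytes, differed by 2.44 ± 0.78 and 2.43 ± 0.91, and C5aR+ array 3 was the highest C5aR+ array for 11 of the 15. Of 20 genes of efferocytosis and scavenging 0 were called in limma, 7 were higher and 1 lower at an unadjusted p under 0.05. Cd36, a lipid scavenger receptor, was dim in LysoMac and differed by 2.55 ± 0.74, and Lrp1, an endocytic receptor, by 2.54 ± 0.74. Ifi205, a member of the Ifi200 family of DNA-binding proteins, was dim in LysoMac and differed by 4.43 ± 0.84 (limma, adjusted p = 0.240). Emp1, a membrane protein, differed by 4.06 ± 0.97, and Thbs1, the matrix protein thrombospondin, by 3.41 ± 0.99, with array 3 highest in each.

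The remaining called genes were Lsp1 and Nav1. Lsp1, an F-actin-binding protein of leukocytes, read 6.40, 6.39 and 6.37 in LysoMac and 7.78, 7.81 and 7.58 in C5aR+ LysoDC. Both populations were tight and far apart, and the difference was 1.34 ± 0.13, or 2.52-fold (limma, adjusted p = 0.0132), which did not pass under quantile normalization (0.107) or cyclic loess (0.130). Nav1, a microtubule-associated protein known from neurons, read 5.75, 5.46 and 5.92 in LysoMac and 7.23 on each C5aR+ array, where the deposited values are identical, so their spread is an exact tie and may not measure replicate error. The difference was 1.52 ± 0.15, or 2.88-fold (limma, adjusted p = 0.0132), while a second cluster of Nav1 differed by -0.02 ± 0.23, and the mean of both was not called (adjusted p = 0.153). Lsp1 did not pass without LysoMac array 1 (limma, adjusted p = 0.0787) or C5aR+ arrays 1 or 2 (0.0570 and 0.104), nor Nav1 without LysoMac array 1 (0.0787) or C5aR+ arrays 1, 2 or 3 (0.0570, 0.104 and 0.0654).

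No gene fell in C5aR+ LysoDC at the threshold. Among genes without overlap, and leaving out predicted, small RNA, olfactory and antigen receptor genes, the most negative difference was that of Cd4, whose protein is both the T cell co-receptor and a marker of some intestinal macrophages, and which the sort antibodies targeted, so its difference may be part of how the cells were chosen. Cd4 read 7.31, 6.20 and 7.88 in LysoMac and 4.96, 4.60 and 4.65 in C5aR+ LysoDC. The C5aR+ arrays were tight and all below the LysoMac arrays, which were spread, and the difference of -2.39 ± 0.36 was not called (limma, adjusted p = 0.104). It was called without LysoMac array 2, the lowest LysoMac array for this gene (adjusted p = 0.00397), and under quantile normalization and cyclic loess (0.0126 and 0.0275).

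C2, a complement component that macrophages secrete, read 7.43, 5.69 and 6.93 in LysoMac and 4.62, 4.23 and 4.10 in C5aR+ LysoDC (-2.37 ± 0.41, limma, adjusted p = 0.187). It too was lowest on LysoMac array 2, and was called without that array (adjusted p = 0.0293). Plxna2, a semaphorin receptor, read 6.81, 6.92 and 7.32 against 5.26, 5.02 and 4.22 (-2.19 ± 0.34, limma, adjusted p = 0.110). Pmp22, a membrane protein of myelin that other cells express too, read 8.57, 8.0 and 9.04 against 6.99, 7.02 and 6.89 (-1.57 ± 0.23, limma, adjusted p = 0.0988). It was tight in C5aR+ LysoDC, and was called without LysoMac array 2 (adjusted p = 0.0137), under quantile normalization (0.00572) and under cyclic loess (0.00478). Egfl6, an EGF-like matrix protein, differed by -2.35 ± 0.61, Tspan10, a tetraspanin, by -2.26 ± 0.42, Mt2, a metallothionein, by -1.61 ± 0.38, and Dkk3, a secreted protein of the Dickkopf family, by -1.53 ± 0.31. Clusters whose 3 and 3 arrays did not overlap were about as many in each direction, 1362 higher (4.03% of all) and 1304 lower (3.86%).

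**Figure D5:**
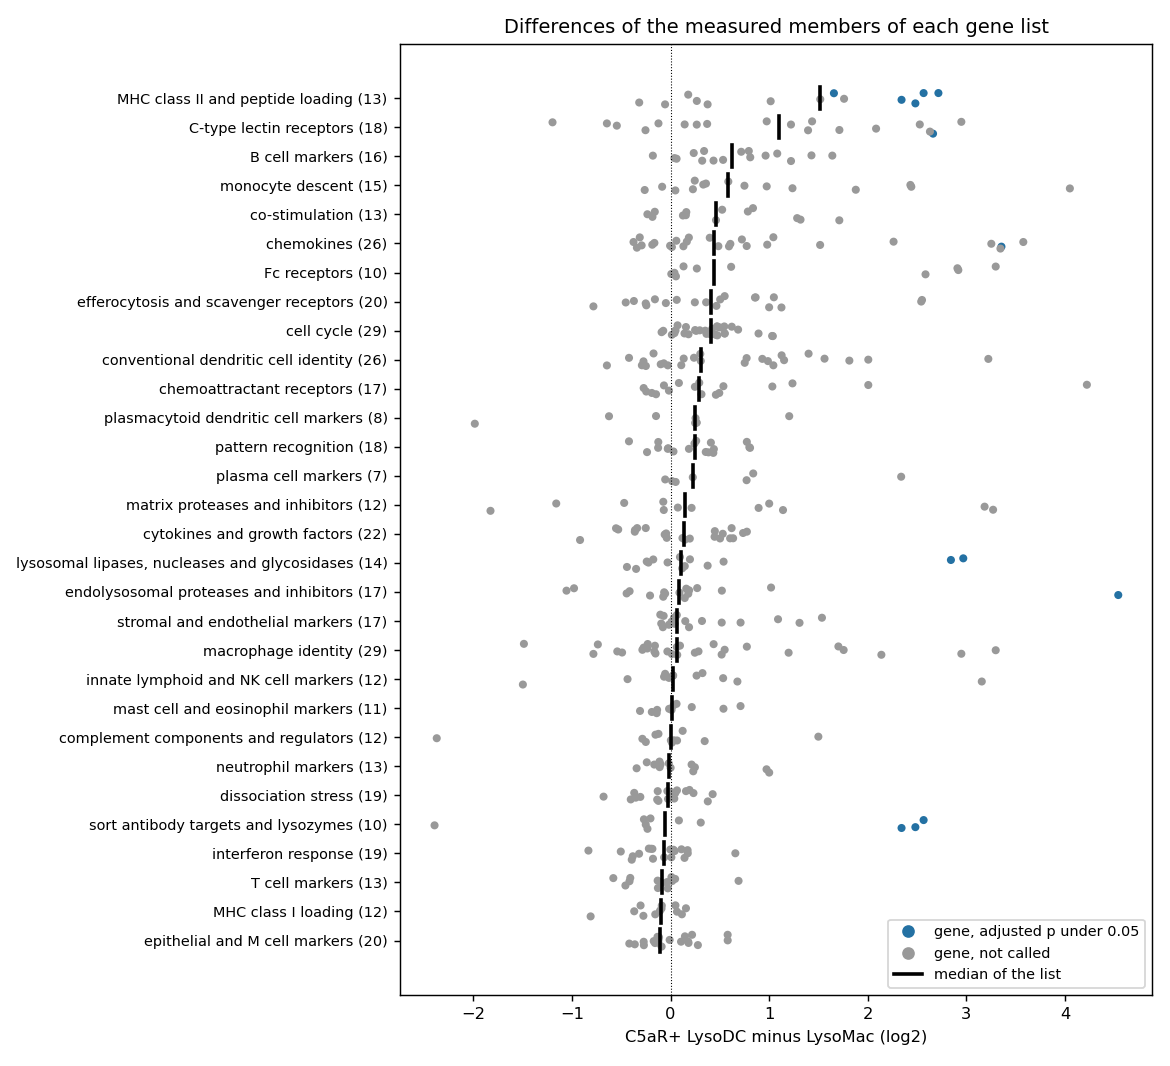
Differences, C5aR+ LysoDC minus LysoMac (log2), of the measured members of 30 gene lists, with called genes in blue, the others in grey and the median of each list as a black bar. With the values as deposited and no filter, the class II list has a median of 1.52, the C-type lectins of 1.10 and the B cell markers of 0.62, and no called gene lies below 0.

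Markers of other cell types moved with the comparison to differing degrees. Of 16 measured B cell markers 15 were higher in C5aR+ LysoDC, 8 of them at an unadjusted p under 0.05 with 0 lower, 0 were called in limma and the median was 0.62. Their mean level was 4.56 to 4.63 in LysoMac and 5.07 to 5.51 in C5aR+ LysoDC, which do not overlap. Pou2af1, a B cell co-activator, read 4.13, 4.04 and 4.02 against 4.81, 4.86 and 4.94 (0.81 ± 0.12, limma, adjusted p = 0.0972), and Pax5, the factor that fixes B cell identity, differed by 0.79 ± 0.15. Cr2, the complement receptor of B cells, was dim in LysoMac, Blk, a kinase of B cells, differed by 1.08 ± 0.23, and Ms4a1 (CD20) and Cd79b by 0.24 and -0.18. Jchain, the joining chain of secreted antibody, read 4.27, 3.01 and 3.41 against 5.73, 5.36 and 6.62 (2.34 ± 0.37, limma, adjusted p = 0.122). B cells carry class II genes, and the part of these markers in the class II differences was not tested. In bulk samples fewer cells of a type and less RNA per cell cannot be told apart.

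The medians of the other lists of foreign cells ran from -0.10 to 0.25. T cell markers had a median of -0.09 over 13 genes, neutrophil markers -0.02 over 13, epithelial and M cell markers -0.10 over 20, mast cell and eosinophil markers 0.01 over 11 and stromal and endothelial markers 0.06 over 17, with 0 called in limma in each and 1, 2, 1, 0 and 4 higher and 0 lower at an unadjusted p under 0.05. Over all 22180 genes 880 were higher and 559 lower at that p. Single members lay farther from 0 than the medians. The 4 stromal and endothelial genes higher at that p were Dcn, Pecam1, Pdpn and Kdr, by 1.53, 1.31, 1.09 and 0.71. Il7r, the interleukin-7 receptor of lymphocytes and innate lymphoid cells, had the largest difference of these lists, with 4.04, 3.67 and 2.46 in LysoMac and 4.96, 6.52 and 8.16 in C5aR+ LysoDC (3.15 ± 0.70, limma, adjusted p = 0.375). Il23r, another innate lymphoid marker, differed by -1.50. Plasma cell, innate lymphoid and NK cell and plasmacytoid dendritic cell markers had medians of 0.23, 0.03 and 0.25 (the last 0.063 without LysoMac array 2), with 0 called in limma and 2, 2 and 1 higher and 0, 2 and 0 lower at that p. Differences of the plasmacytoid list ran from -1.98 to 1.20. Genes induced by tissue dissociation had a median of -0.03 over 19 genes, with 0 called in limma and 0 higher and 2 lower at an unadjusted p under 0.05.

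Further lists gave 0 calls in limma. Of 29 measured cell cycle genes 27 were above 0, with a median of 0.41 (0.26 without LysoMac array 2) and 4 higher and 0 lower at an unadjusted p under 0.05; Top2a, the topoisomerase of dividing cells, read 4.07, 3.55 and 4.89 against 4.86, 5.33 and 5.41. Pattern recognition genes had a median of 0.25 over 18 (2 higher, 0 lower at that p), cytokines and growth factors 0.13 over 22 (3 and 0), complement genes 0.01 over 12 (1 and 1) and interferon response genes -0.06 over 19 (0 and 0). The lysozyme genes Lyz1 and Lyz2, by which the cells are named, differed by -0.25 ± 0.28 and -0.27 ± 0.18 and were high in both, with Lyz2 at 11.21, 11.41 and 11.31 in LysoMac and 10.88, 11.30 and 10.94 in C5aR+ LysoDC. Sirpa and Bst2, targets of the sort, differed by -0.20 ± 0.20 and -0.23 ± 0.35.

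C5aR- LysoDC were set beside the called genes with the difference between the LysoDC populations as the test, in which 34 clusters were called (0.101%), 2 higher and 32 lower in C5aR+ LysoDC, a count that ran from 1 to 67 when single arrays were left out. Of the 12 called genes, 2 differed between the LysoDC populations. Ccl8 read 2.52, 2.42 and 2.00 in C5aR- LysoDC, overlapping LysoMac only at LysoMac array 3, and was 3.78 ± 0.36 higher in C5aR+ LysoDC (limma, adjusted p = 0.0124). Lsp1 read 9.41, 9.48 and 9.24 in C5aR- LysoDC, above all C5aR+ arrays, which in turn lay above all LysoMac arrays, and was lower in C5aR+ LysoDC by -1.66 ± 0.13 (limma, adjusted p = 0.00701). For the class II chains the difference between the LysoDC populations was 0.03 ± 0.14 (H2-Aa), -0.05 ± 0.13 (H2-Ab1), -0.02 ± 0.18 (H2-Eb1) and 0.04 ± 0.29 (H2-Ea). For Mgl2, Nav1, Plbd1 and Pld4 it was -0.996 ± 0.23, -0.70 ± 0.15, -0.79 ± 0.34 and -0.61 ± 0.35, and for Lgmn 0.59 ± 0.49, none of them called.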

How the data were processed

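Expression was measured on Affymetrix whole-transcript arrays, 3 for each of 3 sorted populations. The authors deposited log2 expression values, 1 per transcript cluster and array, made with RMA and Affymetrix Power Tools per the submitters' processing notes. The sources used here give no versions, settings or genome build. The values, from 0.719 to 13.2, were used as deposited, with no filter on all 33793 clusters. Platform annotation, updated through RefSeq, matched 23521 clusters to exactly 1 symbol, which alone are named, while 1814 had several and 8458 had no symbol. The cluster with the highest mean over 9 arrays stands for a gene, which leaves 22180 genes.

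Groups and array numbers come from the titles. The source fields of C5aR- arrays 2 and 3 name other receptors, and the titles were followed. A mean was fitted for each population with limma 3.58.1 (R 4.3.3) on all 9 arrays, which leaves 6 residual degrees of freedom, or 4 with the block, two-sided, with Benjamini-Hochberg adjustment over all clusters and a threshold of 0.05. The number of arrays limits the precision, with a median SE of 0.20. The fit was tested on simulated data, in 10 runs with 200 changed clusters each. It recovered 38.1% of 2-fold and 84.4% of 4-fold changes, and 4.89% of its calls were false. Simulated arrays were drawn independently, so a deviation shared by same-numbered arrays was not part of that test. Each cluster was given the same spread in all populations. The wider spread of LysoMac (mean variance 0.179, against 0.0958 in C5aR+ LysoDC) was therefore not part of it either. Same-numbered arrays of the 2 populations deviated together (r over 0.1 in each pair), which the labels do not explain, and blocked values are printed where they change a call.

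The members, 30 gene lists (495 genes, 460 matched) and tests were chosen with earlier results of these data known. Named genes are the populations' markers, sort targets and lysozymes, every called gene with or without the block, the 10 largest differences in each direction without overlap (predicted, small RNA, olfactory and antigen receptor genes left out), and from each list at most 4 members, those of smallest p, or its 2 highest where fewer than 2 had p under 0.05. The other class II genes, Pld3, Ms4a1 and Cd79b were named after their values were seen. Alternatives were the block, 6 arrays alone, both together, median centring, quantile normalization, cyclic loess, a filter on dim clusters, 1 weight per population, an intensity trend, the mean of a gene's clusters, each array left out, and, chosen later, all arrays numbered 3 left out.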

Additional observations from a re-analysis of the deposited data

Results flagged for a closer look

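Of the genes named in the comparison, 5 also differed between the LysoDC populations, which is the test of whether their differences from LysoMac are unequal (limma, Benjamini-Hochberg adjusted p over all clusters). Both differences share the LysoMac arrays. Over all clusters 34 were called in this test (0.101%). The count was 1 without C5aR+ array 1, so at most 1 of the 5 calls held there. It ran up to 67 without C5aR- array 3. Ccl8 was 3.78 higher in C5aR+ than in C5aR- LysoDC (adjusted p = 0.0124), with differences from LysoMac of 3.35 in C5aR+ and -0.42 in C5aR- LysoDC. Both LysoMac and C5aR- LysoDC were dim, so 3.78 is a lower bound. Lsp1 differed by -1.66 (adjusted p = 0.00701), with 1.34 and 2.99 from LysoMac. Flt3 differed by -2.69 (adjusted p = 0.0355), Itgae by -2.67 (adjusted p = 0.00364) and Pglyrp1, a peptidoglycan-binding protein, by -2.54 (adjusted p = 0.0229). Pglyrp1 read 4.78, 5.25 and 4.57 in LysoMac, 4.74, 5.25 and 4.24 in C5aR+ LysoDC and 7.43, 7.44 and 6.99 in C5aR- LysoDC. The C5aR+ LysoDC arrays overlapped the LysoMac arrays, apart from C5aR+ array 3, which lay below them.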

How the results depend on the processing

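The count of 17 higher clusters became 4 with the 6 arrays alone, 1 with the replicate block on those 6 arrays (0 of the 17), 8 without all 3 arrays numbered 3 and 4 to 17 when each array was left out in turn. It stayed within 1.5 times with an intensity trend (18), population weights (12), the dim filter (21), cyclic loess (17), quantile normalization (19), median centring (21) and the replicate block (20). The count of 0 lower clusters became 3 with quantile normalization, 3 with cyclic loess and 0 to 4 when single arrays were left out. The 34 clusters between the LysoDC populations became 59 with the block, 62 with cyclic loess, 57 with the dim filter, 112 with population weights, 10 without arrays numbered 3 and 1 to 67 without single arrays. In the 6-array fits, clusters with no spread within a population had their variance offset by limma.

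Of 240 values of the 12 called genes over 20 alternatives, 158 stayed called, 82 fell short of the threshold and 0 changed sign. H2-Aa and H2-Ab1 were called in 19 of the 20. The block ended the call of Ccl8 and added those of H2-DMb2, Plxdc2, Fcgrt and Mmp12, and changed no other call of a named gene. Sign changes occurred 55 times, all in uncalled genes whose difference was under its SE. Under cyclic loess C1qa was -0.19, Irf8 -0.094, Psmb10 -0.092, Ifitm3 -0.17, Cd3g -0.0070 and Siglecf 0.046. Under quantile normalization they were -0.14, -0.068, -0.056, -0.12, -0.066 and 0.029. Irf8 was -0.029 over the mean of its clusters, and with median centring Csf1r was 0.023 and Siglecf 0.040. Without arrays numbered 3, C1qc was 0.011, Csf1r 0.16, Bst2 0.23, Lyz1 0.18, Cd3g -0.24, Ccr9 0.32 and Prg2 0. Leaving out single arrays gave ranges of -0.29 to 0.35 for C1qa, -0.056 to 0.038 for Siglecf, -0.11 to 0.56 for Cd68, -0.016 to 0.67 for Itgax, -0.12 to 0.38 for C5ar1, -0.18 to 0.33 for Psmb10, -0.31 to 0.43 for Cd3g, -0.11 to 0.50 for Tcf4, -0.38 to 0.13 for Pglyrp1, -0.28 to 0.0034 for C1qc and -0.28 to 0.24 for Csf1r. They were -0.22 to 0.051 for Zbtb46, -0.64 to 0.23 for Bst2, -0.030 to 0.18 for Ifitm3, -0.45 to 0.27 for Ccr9, -0.080 to 0.36 for Prg2, -0.36 to 0.11 for Tnfaip2 and -0.47 to 0.12 for Lyz1. The causes were not tested. With 3 arrays per population, differences of low genes and of genes spread over the C5aR+ arrays are limited in precision.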
